A study of Danio rerio with 12 samples.

Results

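Cone transducin gamma was followed through its paralogous zebrafish genes, gngt2a and gngt2b. Members were the features with either symbol in the 2 deposited tables of the authors' comparisons, which gave 3 of 30258 Ensembl features. Those tables compare these same libraries and give a symbol to 1010 features, and the authors' limit on the adjusted p was 0.1. The choice was therefore not independent of these data, and a gngt2 feature outside those tables was not counted. For gngt2a there were 2 features, ENSDARG00000010680 and ENSDARG00000110351, and for gngt2b there was 1, ENSDARG00000103543. Because the files give both gngt2a features the same symbol and do not say how reads shared between them were assigned, each is reported alone and as their sum.

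Transducin is the heterotrimeric G protein that couples a light-activated opsin to the phosphodiesterase of the outer segment. Its alpha subunit carries the signal, and the beta and gamma subunits form a dimer that holds the inactive alpha subunit at the membrane. Rods and cones use different alpha, beta and gamma subunits. The cone gamma gene is present in zebrafish as the paralogues gngt2a and gngt2b, and the long wavelength-sensing opsin as the tandem genes opn1lw1 (lws1) and opn1lw2 (lws2).

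Bulk RNA-Seq was made from cells sorted by fluorescence from dissociated, dark-adapted adult zebrafish retinas, with 12 libraries in 4 groups of 3. The LWS2 group held RFP+ cones and the LWS1 group GFP+ cones of the lws:PAC(H) line. That line carries a PAC transgene of the lws locus in which the lws2 promoter drives RFP (dsRedExpress) and the lws1 promoter drives GFP, so both of these groups carry both reporters. The tdTomato+ group held cones of the thrb2:tdTomato line, in which the thyroid hormone receptor beta 2 promoter drives tdTomato in adult LWS cones of either type, and the tdTomato- group held the remaining retinal cells of that line. The genotype label was WT in all groups and fish of both sexes were used in the study. The lines and fluorophores differ between the LWS1 or LWS2 group and the tdTomato+ group, so line and cell type cannot be told apart in those comparisons. LWS2 cells were sorted for RFP and LWS1 cells for GFP, so reporter and cone subtype cannot be told apart between these groups either. The paper names misfolding of dsRedExpress and cell stress as a potential explanation for proteasome transcripts enriched in LWS2. Any part of the reporter in the gngt2 levels was not tested. The labels do not say that replicates came from separate fish or sorts, and p-values then measure only the spread between these libraries.

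Total counts ranged from 459226 to 3189337 per library. They were 694158 to 1417028 in LWS1 and 2092699 to 3105062 in LWS2 libraries, so depth goes with cone subtype in that comparison. The share of counts in the 13 mitochondrially encoded genes was 12.9 to 13.8% in LWS2, 18.9 to 29.7% in LWS1, 22.0 to 71.7% in tdTomato+ and 53.4 to 54.3% in tdTomato- libraries. The 3 tdTomato- libraries carry a cone label in GEO but were sorted as tdTomato- retinal cells, and rho, the rod opsin, had 9990 to 32657 CPM in them, against 3437 to 8583 CPM in tdTomato+ libraries. A floor of 3 counts corresponded to at most 8.83 CPM, and each gngt2 feature had at least 57 counts in every library. Levels are given as CPM, which are counts divided by the TMM-adjusted size of their library, with the adjustment made over all 12 libraries. In such bulk samples fewer cells of a type and less RNA per cell cannot be told apart.

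The larger gngt2a feature was highest in the LWS1 cones and lower in each other sort. ENSDARG00000010680 had 2037, 1504 and 1610 CPM in LWS2 replicates 1, 2 and 3, against 4479, 4240 and 4557 CPM in LWS1 replicates 1, 2 and 3. In the other line it had 2823, 2177 and 968 CPM in tdTomato+ libraries, against 630, 873 and 874 CPM in tdTomato- libraries. The LWS1 libraries lay above all others, the tdTomato+ libraries ranged widely and overlapped the LWS2 libraries, and the tdTomato- libraries were lowest.

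The smaller gngt2a feature followed the same order of group means. ENSDARG00000110351 had 503, 320 and 449 CPM in LWS2, against 1278, 817 and 1533 CPM in LWS1. It had 766, 527 and 389 CPM in tdTomato+, against 168, 289 and 311 CPM in tdTomato-. Its LWS1 libraries again exceeded every other library. It took 19.7 ± 2.14% of all gngt2a counts in LWS2, 21.2 ± 4.60% in LWS1, 23.2 ± 4.84% in tdTomato+ and 24.0 ± 2.70% in tdTomato- (SD, n = 3 each). The shares of all 4 groups overlapped.

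For gngt2b, the order of the groups was different, with the LWS1 cones lowest. gngt2b had 6897, 6188 and 5986 CPM in LWS2, against 2797, 2369 and 3553 CPM in LWS1. It had 7368, 8153 and 5760 CPM in tdTomato+, against 3816, 6071 and 6181 CPM in tdTomato-. All LWS1 libraries lay below all libraries of the other groups. The tdTomato+, LWS2 and tdTomato- libraries, in falling order of their means, overlapped at each step.

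**Figure D1:**
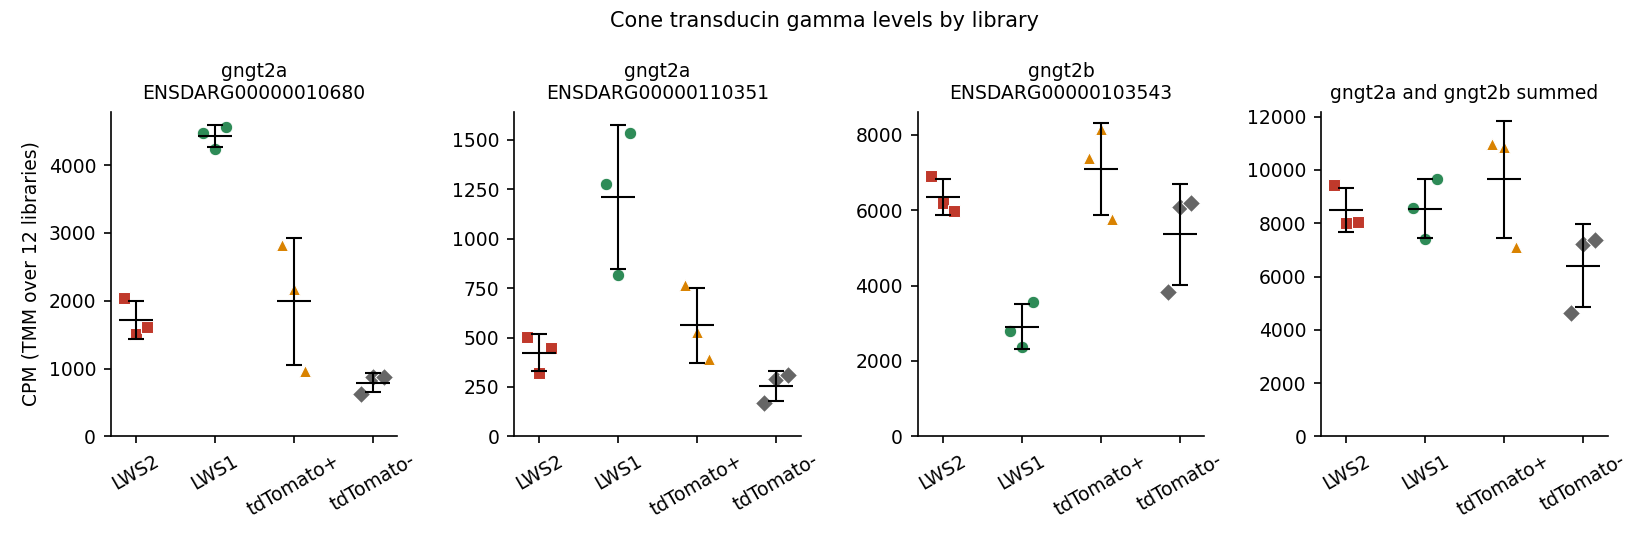
CPM (TMM scaling over 12 libraries) of each gngt2 feature and of their sum on the y axes, with 1 point per library and 4 groups on the x axes; bars are the mean and SD (n = 3). LWS1 libraries sit above all others for both gngt2a features and below all others for gngt2b, and the sums overlap between LWS2 and LWS1.

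LWS2 cones were compared with LWS1 cones to ask whether the paralogues differ between the cone subtypes. Both gngt2a features fell in LWS2 relative to LWS1. The log2 fold change of ENSDARG00000010680 was -1.51 (SE 0.165, edgeR FDR = 0.00363), 2.86-fold lower in LWS2, and it ranked 8th of the 8432 features tested by p-value. That of ENSDARG00000110351 was -1.66 (SE 0.260, edgeR FDR = 0.0146), 3.17-fold lower in LWS2. With the counts of both features summed, gngt2a averaged 2141 ± 365 CPM in LWS2 and 5635 ± 528 CPM in LWS1 (SD, n = 3 each). The fitted log2 difference of this sum was -1.55 (SE 0.171, edgeR FDR = 0.00361).

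gngt2b rose in LWS2 relative to LWS1. It was 1.97-fold higher, or 0.98 on the log2 scale (SE 0.185, edgeR FDR = 0.0307). It averaged 6357 ± 479 CPM in LWS2 and 2907 ± 599 CPM in LWS1 (SD, n = 3 each). CPM are scaled over all 12 libraries and each pairwise fit over its own libraries, so folds read from CPM can differ from fitted ones. Features were called where the FDR was under 0.05 and the change above 2-fold either way. Of the 3 gngt2 features, the 2 of gngt2a were called, against 1.80% of all features tested. gngt2b passed the FDR cutoff alone, which 1.96% of all features passed, 1.25% with higher and 0.712% with lower levels in LWS2. The libraries of LWS2 and LWS1 did not overlap for any of the 3 features, as was so for 23.2% of the features tested. From these same libraries the paper had already reported gngt2a as enriched in LWS1 cones and gngt2b in LWS2 cones. The members were also chosen through the authors' tables, so the counts that passed are a description and no independent support.

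The test of gngt2b rested on more of the libraries than that of gngt2a. Without LWS2 replicate 3, the edgeR FDR was 0.140 for gngt2b, 0.124 for ENSDARG00000110351 and 0.0689 for ENSDARG00000010680. Without LWS2 replicate 1 or 2, ENSDARG00000110351 (edgeR FDR = 0.0951 and 0.0751) and gngt2b (edgeR FDR = 0.184 and 0.124) missed the cutoff, and gngt2b also missed it without LWS1 replicate 1 (edgeR FDR = 0.0670) or 2 (edgeR FDR = 0.0626). In 1 fit over all 12 libraries, which share 1 estimate of the spread, none of the 3 features passed (edgeR FDR = 0.159, 0.0886 and 0.453), with log2 fold changes of -1.52, -1.68 and 0.97. That fit called 20 features in all. Mitochondrial shares were lower in every LWS2 library than in every LWS1 library, and with the mitochondrial genes left out of the fit the log2 fold changes were -1.52, -1.68 and 0.97 (edgeR FDR = 0.00359, 0.0128 and 0.0286).

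The opposite differences of gngt2a and gngt2b nearly cancelled in the sum of their counts. These counts are not divided by transcript length, so the sum does not measure the total transcripts of both genes. Summed gngt2 had 8498 ± 814 CPM in LWS2 and 8541 ± 1109 CPM in LWS1 (SD, n = 3 each). In a fit with the 3 features replaced by their sum, its log2 fold change was -0.16 (95% interval -0.51 to 0.19, edgeR FDR = 0.701). Changes as large as the fitted values of gngt2a or gngt2b lie outside this interval.

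The alpha and beta subunits of cone transducin were set beside gamma. GNAT2 (ENSDARG00000042529), the cone transducin alpha gene, had 9168, 8571 and 8426 CPM in LWS2, against 8594, 9710 and 11522 CPM in LWS1, with log2 fold change -0.34 (SE 0.163, edgeR FDR = 0.378). gnb3b (ENSDARG00000002696), a transducin beta gene of the kind used by cones, had 5219, 4991 and 4763 CPM in LWS2, against 4667, 4819 and 6008 CPM in LWS1, with log2 fold change -0.20 (SE 0.162, edgeR FDR = 0.623). Neither passed the test, and the groups overlapped for both.

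**Figure D2:**
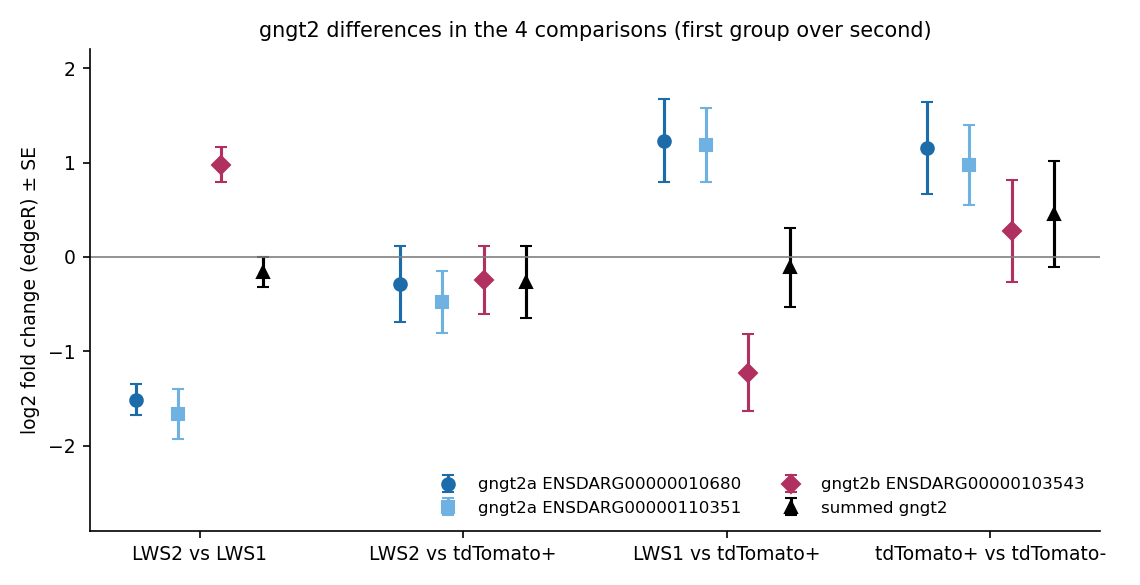
log2 fold change from edgeR with its SE (y axis) of the 3 gngt2 features and of their sum in 4 comparisons (x axis), the first-named group over the second. In LWS2 vs LWS1 both gngt2a features lie near -1.6, gngt2b near 0.98 and the sum near -0.16.

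Because GNAT2 is made by all cones, gngt2 counts were also divided by the GNAT2 counts of the same library, a choice made after the data were seen. This ratio does not depend on library size, and it can be compared between libraries but not between genes, since the counts are not divided by transcript length. The gngt2a to GNAT2 ratio was 0.277, 0.213 and 0.244 in LWS2, against 0.670, 0.521 and 0.529 in LWS1, and it was 0.343, 0.270 and 0.162 in tdTomato+, against 0.301, 0.234 and 0.217 in tdTomato-. The LWS1 libraries stood above the other 9, which overlapped. Separation of such a ratio was not particular to gngt2. The gnb3b to GNAT2 ratio was 0.572 ± 0.00895 in LWS2, 0.520 ± 0.0234 in LWS1 and 0.726 ± 0.0379 in tdTomato+ (SD, n = 3 each), also without overlap. Its log2 difference of LWS2 minus LWS1 was 0.14, against -1.23 for gngt2a to GNAT2. GNAT2 itself was lower in the tdTomato- libraries, at 2650, 4963 and 5468 CPM, than in any library of the cone sorts.

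The gngt2b to GNAT2 ratio separated 3 levels. It was 0.752, 0.722 and 0.710 in LWS2, against 0.326, 0.244 and 0.308 in LWS1. It was 0.704, 0.814 and 0.688 in tdTomato+, against 1.44, 1.22 and 1.13 in tdTomato-. LWS1 libraries were lowest, LWS2 and tdTomato+ libraries overlapped, and tdTomato- libraries were above all others. In log2, the mean difference was 1.33 for LWS2 minus LWS1, -0.011 for LWS2 minus tdTomato+, -1.34 for LWS1 minus tdTomato+ and -0.78 for tdTomato+ minus tdTomato-.

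Summed gngt2a and gngt2b over GNAT2 was 0.973 ± 0.0499 in LWS2, 0.866 ± 0.118 in LWS1, 0.994 ± 0.126 in tdTomato+ and 1.52 ± 0.203 in tdTomato- (SD, n = 3 each). The 3 cone sorts overlapped and the tdTomato- libraries lay above them. With 3 libraries against 3, a two-sided exact permutation test cannot go below p = 0.1. Over the 16 tests of gngt2 ratios in the 4 comparisons, those whose libraries did not overlap had p = 0.1 by the exact permutation test, which is 0.178 after Benjamini-Hochberg adjustment.

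**Figure D3:**
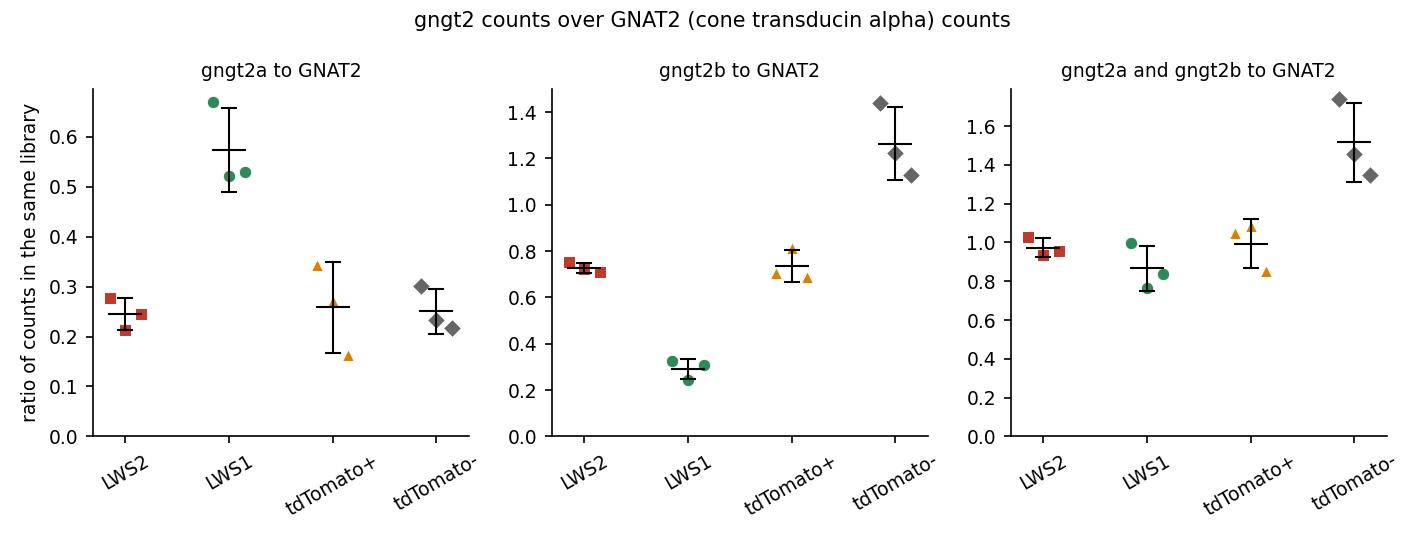
Counts of gngt2a, of gngt2b and of both over the counts of GNAT2 in the same library (y axes), with 1 point per library in 4 groups (x axes); bars are the mean and SD (n = 3). LWS1 libraries stand apart for gngt2a (0.521 to 0.670) and gngt2b (0.244 to 0.326), and tdTomato- libraries are highest for gngt2b (1.13 to 1.44).

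The gngt2a to gngt2b ratio of counts within each library was 0.368, 0.295 and 0.344 in LWS2 and 2.06, 2.13 and 1.71 in LWS1. It was 0.487, 0.332 and 0.236 in tdTomato+ and 0.209, 0.191 and 0.192 in tdTomato-. LWS1 was thus the sort with more gngt2a than gngt2b counts in every library, and in each of the other 9 libraries gngt2b counts were in the majority. The ratio was 5.86-fold lower in LWS2 than in LWS1, a log2 difference of -2.55 that far exceeded the SDs of 0.165 in LWS2 and 0.170 in LWS1, with p = 0.1 by the exact permutation test, the smallest that 3 libraries against 3 allow. With either gngt2a feature used alone, the log2 difference was -2.52 or -2.64.

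As a share of all gngt2 counts, gngt2a made up 26.9, 22.8 and 25.6% in LWS2 replicates 1, 2 and 3, against 67.3, 68.1 and 63.2% in LWS1 replicates 1, 2 and 3. It made up 32.8, 24.9 and 19.1% in tdTomato+, against 17.3, 16.1 and 16.1% in tdTomato-. The 95% Wilson interval was widest in tdTomato- replicate 1, at 15.5 to 19.2% of 1567 counts, and covers counting error only. The tdTomato+ libraries differed from each other by more than such intervals, from 18.4 to 19.7% in replicate 3 to 32.2 to 33.3% in replicate 1.

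Against the mixed LWS cones of the tdTomato+ sort, no difference of LWS2 cones in gngt2 passed the test. The log2 fold changes, LWS2 over tdTomato+, were -0.29 (95% interval -1.19 to 0.62, edgeR FDR = 0.882) and -0.48 (-1.21 to 0.25, edgeR FDR = 0.677) for the gngt2a features, and -0.24 (-1.04 to 0.56, edgeR FDR = 0.886) for gngt2b. None of the 3 was called, against 0.844% of the 9598 features tested, none had an unadjusted edgeR p under 0.05 or passed with DESeq2 or limma-voom, and the libraries overlapped for all 3, whereas they did not for 16.1% of features. The gngt2a to gngt2b ratio differed by -0.0095 on the log2 scale (p = 1 by the exact permutation test), with an SD of 0.524 between tdTomato+ libraries. The intervals still allow a change of about 2-fold, and without tdTomato+ replicate 1 the log2 fold change of ENSDARG00000010680 was 0.0027 and the log2 difference of the ratio was 0.26.

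LWS1 cones differed from tdTomato+ cones by more, without passing the test. The log2 fold changes, LWS1 over tdTomato+, were 1.23 (SE 0.436, edgeR FDR = 0.690) and 1.19 (SE 0.392, edgeR FDR = 0.626) for the gngt2a features and -1.23 (SE 0.408, edgeR FDR = 0.631) for gngt2b. Their unadjusted edgeR p-values were 0.0141, 0.00953 and 0.0100, and the libraries did not overlap for any of the 3, as was so for 10.2% of the features tested. None was called by edgeR, and none passed with DESeq2 or limma-voom. Of all 7214 features 1 was called, zgc:195170, or 0.0139%. The gngt2a to gngt2b ratio was 5.83-fold higher in LWS1, a log2 difference of 2.54 (p = 0.1 by the exact permutation test). The comparisons of LWS2 and of LWS1 with tdTomato+ share the same tdTomato+ libraries.

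The tdTomato+ cones were compared with tdTomato- retinal cells to ask how far gngt2 marks LWS cones within the retina. The log2 fold changes, tdTomato+ over tdTomato-, were 1.16 (SE 0.489, edgeR FDR = 0.313) and 0.97 (SE 0.425, edgeR FDR = 0.334) for the gngt2a features and 0.28 (SE 0.541, edgeR FDR = 0.884) for gngt2b. The unadjusted edgeR p-values were 0.0358, 0.0405 and 0.620. None of the 3 was called, against 2.14% of the 8236 features tested, and none passed with DESeq2 or limma-voom. The libraries did not overlap for either gngt2a feature, as was so for 20.3% of features, and did overlap for gngt2b. The gngt2a to gngt2b ratio was 1.71-fold higher in tdTomato+, with no overlap (p = 0.1 by the exact permutation test). In the same comparison opn1lw1 summed over its features averaged 7101 ± 2329 CPM in tdTomato+ and 1026 ± 930 CPM in tdTomato- (SD, n = 3 each). Summed opn1lw2 averaged 12829 ± 1150 CPM in tdTomato+ and 1202 ± 1027 CPM in tdTomato- (SD, n = 3 each). The log2 fold changes of these sums, 2.71 and 3.33, were larger than that of gngt2b. They too missed the cutoff (edgeR FDR = 0.120 and 0.0601), and of the single opsin features only ENSDARG00000115709 of opn1lw2 passed (edgeR FDR = 0.0353). GNAT2, the cone transducin alpha gene, did not pass either (edgeR FDR = 0.486).

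Marker sums of Müller glia and rods were higher in tdTomato- than in tdTomato+ with no overlap, while those of other cones overlapped. The Müller glia list, with 8 of 8 genes matched to 9 features, summed to 188 to 1395 CPM in tdTomato+ and 6006 to 10905 CPM in tdTomato-, with no overlap, and 1 of its features was at 0 in every library of both groups. The markers of other cones, all 9 listed genes matched to 10 features, summed to 6020 to 18099 CPM in tdTomato+ and 14491 to 31918 CPM in tdTomato-. Within them the UV cone opsin opn1sw1 had 645 to 1814 CPM in tdTomato+ and 5158 to 15119 CPM in tdTomato-. The opsin opn1mw4 was also apart, at 216 to 529 CPM in tdTomato+ and 701 to 1152 CPM in tdTomato-. The opsins opn1sw2, opn1mw1, opn1mw2 and opn1mw3 overlapped. Of these, opn1mw1 reached 2989 CPM in tdTomato+ against 1242 CPM in tdTomato-, and opn1mw2 reached 7069 against 4022 CPM. Rod markers, 13 of 16 listed genes matched, summed to 5895 to 15423 CPM in tdTomato+ and 15650 to 38964 CPM in tdTomato-. Of the single rod features only rho and ROM1 were apart, and all others overlapped. Among those, GNAT1 had 718 to 2174 CPM in tdTomato+ and 1731 to 2699 CPM in tdTomato-. PDE6G reached 1202 CPM in tdTomato+ against 1021 CPM in tdTomato-. None of these rod or other-cone features was at 0 in all libraries of either group. The part of these cells in the gngt2b level and in the gngt2b to GNAT2 ratio of tdTomato- libraries was not tested.

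In the lws:PAC(H) sorts the other-cone and rod lists were lower in every library than in any tdTomato- or tdTomato+ library. Müller glia markers summed to 478 to 1117 CPM in LWS2 and 661 to 1428 CPM in LWS1. Other-cone markers summed to 5115 to 5414 CPM in LWS2 and 2717 to 4884 CPM in LWS1, and rod markers to 2146 to 3786 CPM in LWS2 and 2708 to 5416 CPM in LWS1. LWS cone markers, with 6 of 6 genes matched, summed to 42353 to 54503 CPM in LWS2, 56396 to 69891 CPM in LWS1, 41352 to 56828 CPM in tdTomato+ and 11061 to 15385 CPM in tdTomato-. The part of rods, other cones and Müller glia in the difference between LWS2 and LWS1, or of either from tdTomato+, was not tested.

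The gngt2 ratio was then set against the ratio of the LWS opsins. The lws promoters drive the reporters used for the LWS2 and LWS1 sorts, so a difference in this opsin ratio between those groups is set by the design and is given as a description. The opn1lw1 to opn1lw2 ratio, each summed over 2 features, was 0.456, 0.267 and 0.440 in LWS2, against 4.93, 14.1 and 2.72 in LWS1. It was 0.411, 0.841 and 0.447 in tdTomato+, against 0.763, 0.795 and 0.893 in tdTomato-. Both opsins were present in both lws:PAC(H) sorts, with opn1lw1 at 27.6 ± 5.69% of the LWS opsin counts in LWS2 and 83.2 ± 10.1% in LWS1 (SD, n = 3 each). The opsins are closely similar tandem copies, so the division of reads between them is uncertain.

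Among the opsin features, the log2 fold change of LWS2 over LWS1 was -2.00 (edgeR FDR = 0.00751) and -1.99 (edgeR FDR = 0.00565) for the opn1lw1 features ENSDARG00000044862 and ENSDARG00000115464. It was 1.35 (edgeR FDR = 0.280) and 2.07 (edgeR FDR = 0.0254) for the opn1lw2 features ENSDARG00000044861 and ENSDARG00000115709. On the log2 scale the opsin ratio differed between LWS2 and LWS1 by -3.93 and the gngt2 ratio by -2.55.

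Over all 4 groups the means of the 2 ratios were not in the same order. Among the cone sorts both means fell from LWS1 to tdTomato+ to LWS2, although LWS2 and tdTomato+ libraries overlapped on both ratios. The mean opsin ratio was 0.388 in LWS2, 7.25 in LWS1, 0.566 in tdTomato+ and 0.817 in tdTomato-, while the mean gngt2 ratio was 0.336, 1.97, 0.352 and 0.197 in those groups. The tdTomato- libraries were lowest on the gngt2 ratio, each under all 9 cone libraries, but on the opsin ratio they overlapped tdTomato+, where replicate 2 had 0.841. With only ENSDARG00000115464 and ENSDARG00000115709, the mean opsin ratio was 0.392 in tdTomato+ and 0.363 in tdTomato-, the other way round. That tdTomato- mean includes a ratio of 0 in replicate 1, with 0 counts of ENSDARG00000115464 and 21 of ENSDARG00000115709. Replicates 2 and 3 had 0.654 and 0.435, so the turned order rests on replicate 1. The summed opsin ratio of tdTomato- replicate 1 also rests on few counts, with 45 of opn1lw1 and 59 of opn1lw2.

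Within the groups, no relation of the ratios passed a test. LWS1 libraries formed a cluster of their own, so no correlation over pooled libraries is given, and group means were removed first. Over the 12 libraries, the deviations had Pearson r = 0.24 (two-sided exact permutation within groups, p = 0.481) and Spearman rho = 0.43 (exact permutation, p = 0.272). LWS1 replicates 2 and 3 were farthest out on the opsin ratio. Leaving them out, a setting added after the data were seen, also drops LWS1 replicate 1, then alone in its group, and over the 9 libraries of the other 3 groups r was 0.053 (exact permutation, p = 0.921). The orders of the ratios were the same in LWS2 (replicates 1, 3, 2 from high to low) and in LWS1 (replicates 2, 1, 3), and differed in tdTomato+ and in tdTomato-. tdTomato+ replicate 1, with the highest gngt2 ratio of its group and the lowest opsin ratio, decided the value, since without it r was 0.74 (exact permutation, p = 0.0486, the lowest of 12 libraries left out in turn and not adjusted for them).

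**Figure D4:**
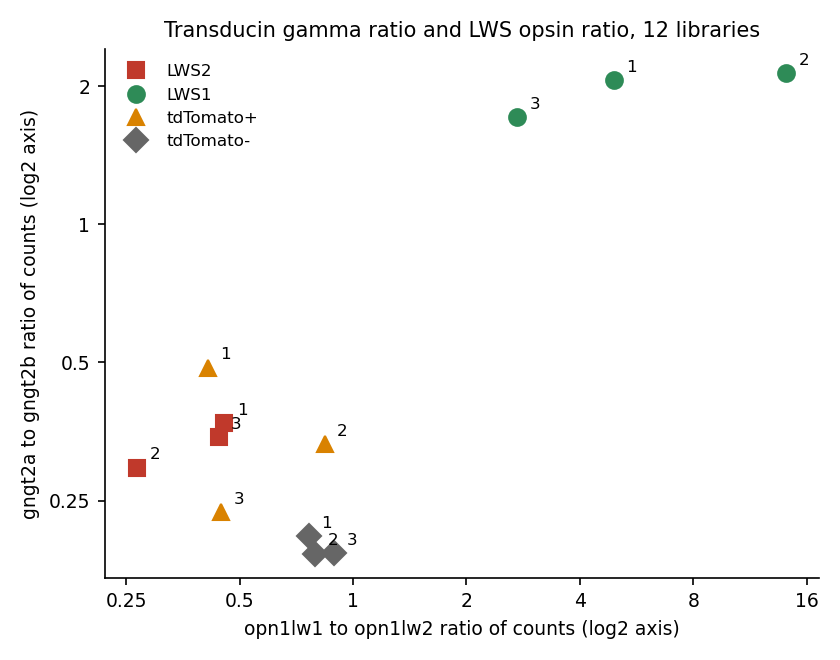
The gngt2a to gngt2b ratio of counts (y axis) against the opn1lw1 to opn1lw2 ratio of counts (x axis), both on log2 axes, with 1 point per library, numbered by replicate, in 4 groups. LWS1 libraries sit alone at the upper right, and tdTomato- libraries lie below the other groups at opsin ratios of 0.763 to 0.893.

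The rest of the phototransduction pathway was read from a list of 53 symbols, of which 40 matched 50 features. The list was drawn up for cones but also holds the rod transducin genes GNAT1, gnb1a and gnb1b, which stand in the rod marker list too. In LWS2 vs LWS1, 45 of these features were tested, 3 rose and 2 fell at an FDR under 0.05, and 40 did not pass. Of all features tested, 1.25% rose and 0.712% fell at that FDR. The 3 rod features did not pass. The median log2 fold change of the listed features was -0.34, or -0.26 without the 3 rod features, against -0.020 over all features tested, and values ranged from -1.20 to 1.60. The features that rose in LWS2 were calm1b, a calmodulin gene (1.50, edgeR FDR = 0.0205), LOC562466, a cyclic nucleotide-gated channel gene (1.47, edgeR FDR = 0.0216), and grk1b, an opsin kinase gene (0.92, edgeR FDR = 0.0495). Those that fell in LWS2 were guca1c, a guanylate cyclase activator gene (-1.20, edgeR FDR = 0.0254), and arr3a, a cone arrestin gene (-0.87, edgeR FDR = 0.0421). The list was drawn up with earlier results of these data known. The paper had already reported calm1b, LOC562466 and arr3a as differing between these subtypes, as it had gngt2a and gngt2b. The count of listed features that passed is therefore a description and no independent support.

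The gngt2a features had lower log2 fold changes than every feature of that list. gngt2b was near grk1b, and 4 features of the list were above it. arr3a had 15658, 10197 and 12323 CPM in LWS2, against 19826, 20467 and 22619 CPM in LWS1, with no overlap. In edgeR's test of the other comparisons, 0 of 47 listed features passed in tdTomato+ vs tdTomato- and 0 of 45 in LWS1 vs tdTomato+, against 2.14% and 0.0139% of all features tested. An unadjusted p under 0.05 was found for 15 listed features in tdTomato+ vs tdTomato-, where 13.4% of all features had one, and for 15 in LWS1 vs tdTomato+, where 5.38% had one. Without the 3 features of the rod marker list these counts were 15 of 44 and 12 of 42. Any other listed gene that rods make was left in. In LWS2 vs tdTomato+ 2 of 46 passed, against 0.844% of all features, and these were GUCA1B and guca1e, both lower in LWS2 and named here after their values were seen.

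**Figure D5:**
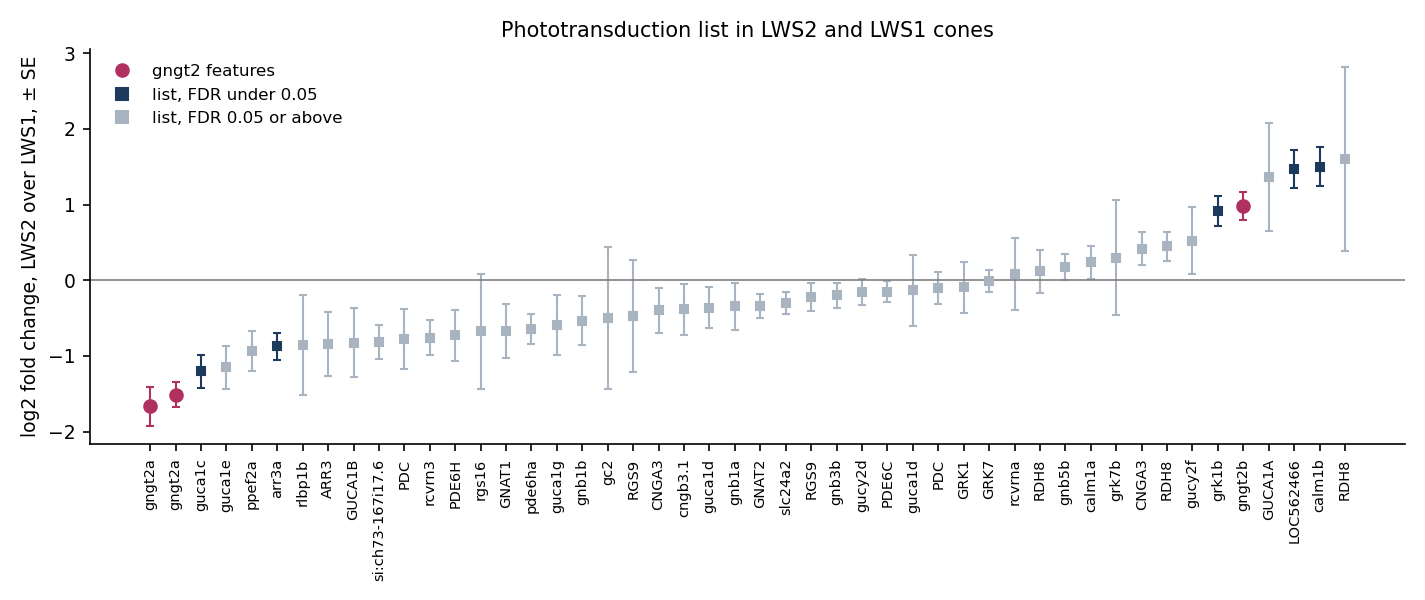
log2 fold change of LWS2 over LWS1 with its SE (y axis) for 45 features of the phototransduction list, rod transducin genes GNAT1, gnb1a and gnb1b included, and the 3 gngt2 features (x axis, by value; a name may stand for several features). Both gngt2a features are at the low end (-1.66 and -1.51), gngt2b is at 0.98, and 5 listed features passed an FDR of 0.05.

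The genes most like each paralogue were found by Pearson's r of log2(CPM + 0.5) over the 12 libraries, among 10151 features, as a description only. All points share the 4 groups and the scaling, so a gene that differs between groups in the same way scores high. The features named are those with a symbol. The feature most like summed gngt2a, ENSDARG00000099004 (r = 0.98), has none. The 5 with a symbol were si:rp71-1h20.9 (r = 0.96), sypb, a synaptophysin gene (0.93), slc1a2a, a glutamate transporter gene (0.92), leo1, a gene of a transcription elongation complex (0.92), and sort1b, a sortilin gene (0.91). sypb averaged 611 CPM in LWS2, 879 in LWS1, 637 in tdTomato+ and 407 in tdTomato-, the order of groups seen for gngt2a. With group means removed, the r of these 5 was 0.57 to 0.75.

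For gngt2b they were PSME3, a proteasome activator gene (r = 0.95), FCF1, a ribosomal RNA processing gene (0.91), nfs1, a cysteine desulfurase gene (0.90), slc26a1, an anion transporter gene (0.90), and ppp2r2ab, a phosphatase regulatory subunit gene (0.88). PSME3 averaged 24.8 CPM in LWS2, 12.4 in LWS1, 28.1 in tdTomato+ and 21.4 in tdTomato-, again with LWS1 lowest. With group means removed, their r was 0.58 to 0.87. Levels of slc26a1 and ppp2r2ab were near the floor in LWS1, averaging 0 and 2.91 CPM. The median r over all features was 0.088 with gngt2a and 0.13 with gngt2b.

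The genes beside the paralogues were at much lower levels. In the gene order of the RefSeq GRCz12tu assembly, used here for names and order only, gngt2a has lsm12a and col1a1a among its 5 neighbours on each side, and gngt2b has their paralogues lsm12b and col1a1b. Of 10 neighbours each, 8 of gngt2a and 7 of gngt2b matched a feature. The highest group mean among them was 54.1 CPM for ppp1r9ba beside gngt2a and 42.2 CPM for lsm12b beside gngt2b, both in LWS1.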

How the data were processed

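The authors trimmed reads with Trimmomatic 0.36, checked them with FastQC 0.11.5, and named STAR, Salmon (0.13.1 in the submitters' processing notes) and tximport for alignment to GRCz11 and import. Which aligner gave the table is not given in the sources used here. They deposited whole-number counts per Ensembl feature, without normalization. Libraries were made from total RNA with the TruSeq kit. The 2 deposited tables of the authors' comparisons hold fold changes, p-values and 12 per-library columns, none of which entered a fit here. Only their symbols were read. Features could become gngt2 members or LWS opsin features only through a row there, and the authors' limit on the adjusted p was 0.1. That selection was therefore not independent of these data.

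Members and gene lists were chosen with earlier results of these data known. Features were kept by filterByExpr for each pair of groups, scaled by TMM and tested with the quasi-likelihood test of edgeR 4.0.16 (R 4.3.3), with Benjamini-Hochberg adjustment over all features. Standard errors and intervals were computed from each fitted difference and its F statistic. Ratios were compared by two-sided exact permutation (scipy 1.17.1). Genes named were the members, the LWS opsins, the 5 features with a symbol most like each paralogue (pseudocount 0.5 CPM), and listed phototransduction genes with an FDR under 0.05. GNAT2, gnb3b and the neighbouring genes were added after their values were seen. Symbols came from the deposited tables, then from a reference list of gene names, where paralogue letters were ignored if nothing else matched, a rule set after the files were seen, so 23649 of 30258 features had a symbol. Alternatives were DESeq2 1.42.0, limma 3.58.1 (voom with quality weights), RLE scaling, no filter, a replicate block, 1 fit of all groups, no mitochondrial genes, features summed by symbol and every library omitted in turn. Scripts were tested on simulated data. No library repeated another. Total counts per library, 459226 to 3189337, set the precision. Wilson intervals and the floor cover counting error only, and intervals of fold changes also include the spread between libraries.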

Additional observations from a re-analysis of the deposited data

How the results depend on the processing

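In LWS2 vs LWS1, where 152 features were called, DESeq2 called 356, no filter on low counts 678 and 1 fit of all 12 libraries 20, and 1 to 145 were called with a library left out. There gngt2a kept its sign in every alternative. In the fit of all libraries, the log2 fold changes were -1.52 (ENSDARG00000010680), -1.68 (ENSDARG00000110351) and 0.97 (gngt2b), all above the FDR cutoff, and with RLE scaling gngt2b had 0.92 (edgeR FDR = 0.0510). With a library left out, they ranged from -1.65 to -1.44, from -1.86 to -1.41 and from 0.87 to 1.199, and 5, 3 and 1 of 6 passed. In tdTomato+ vs tdTomato- (176 called), DESeq2 called 493, limma-voom 636, no filter 617 and the fit of all libraries 378, and 0 to 195 with a library left out. In LWS1 vs tdTomato+ (1 called), DESeq2 called 38 and no filter 108, and 0 or 1 with a library left out. In LWS2 vs tdTomato+ (81 called), DESeq2 called 228, limma-voom 161 and no filter 354, and 0 to 571 with a library left out. The causes of these moves were not tested. No filter moved the median log2 fold change of all features by 0.24 in LWS2 vs LWS1, and DESeq2 by -0.17 in tdTomato+ vs tdTomato-, over other sets of features.

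Signs turned where values were near 0. With a library left out, the log2 fold change of summed gngt2 in LWS1 vs tdTomato+ ranged from -0.27 to 0.054 and that of ENSDARG00000010680 in LWS2 vs tdTomato+ from -0.62 to 0.0027. The log2 gngt2a to gngt2b ratio in LWS2 vs tdTomato+ ranged from -0.27 to 0.26, and was 0.056 with ENSDARG00000010680 alone. The r of the gngt2 and opsin ratios ranged from 0.071 to 0.74, and was -0.19 with the second feature of gngt2a and of each opsin. That value covers 11 libraries, without tdTomato- replicate 1, where ENSDARG00000115464 had 0 counts. Depth limits opsin ratios in tdTomato- replicate 1.

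Replicate numbers shared between groups were not taken as pairing the libraries, because the labels do not say what a number marks and not every correlation of same-numbered deviations was over 0.1. These were 0.0038 to 0.18 in LWS2 vs LWS1 and -0.14 to 0.21 elsewhere. The data hold a hint of pairing in LWS2 vs LWS1, where 4 of 6 libraries correlated best with their own number. With the replicate block, 200 features were called in LWS2 vs LWS1, 144 in tdTomato+ vs tdTomato-, 1 in LWS1 vs tdTomato+ and 185 in LWS2 vs tdTomato+. gngt2b then had a log2 fold change of 1.00 in LWS2 vs LWS1 (edgeR FDR = 0.0179), just past the fold-change cutoff.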
